A study of Mus musculus with 4 samples.

Results

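The genes described here encode 10 cytokines that follicular helper T (TFH) cells make or can be induced to make. They were picked by name (Il21, Il4, Ifng, Il10, Il2, Il13, Il16, Lif, Csf1 and Csf2), with earlier results of these data known. No measured value was used as a rule. All 10 were found among the 23996 genes of the authors' deposited table, 9 of them among its 11569 tested genes. The cells came from mouse spleen, on day 7 of an immune response to ovalbumin given in alum, and were taken by flow sorting through a gate positive for CD4, CD44, CXCR5 and PD-1. The floxed Etv5 allele was present in both genotypes. Mice of the genotype Etv5f/f without Cre are called wild type (WT), and the conditional knockout (Etv5 cKO) had the genotype Etv5f/f;Cd4-Cre. Cd4-Cre acts in all cells that descend from Cd4-expressing thymocytes, so the deletion is not restricted to TFH cells. Each genotype had 2 libraries, and the labels do not say whether they came from separate mice.

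TFH cells help B cells in germinal centres largely through secreted cytokines. Interleukin-21 drives germinal centre B cell growth and plasma cell formation. Interleukin-4 and interferon-gamma steer the antibody class to which a mouse B cell switches. Most cytokine genes are switched on by T cell receptor signals through NFAT and AP-1 factors, and their messenger RNAs are often short-lived because they hold AU-rich elements.

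The deposited table gives 1 FPKM value (sequenced fragments per unit of transcript length and of library size) per gene and genotype, over both libraries. No value per library and no spread could be had from it, the depth is unknown, and the p-values are those of the authors' Cuffdiff test, which may measure technical spread. A gene is called here at a deposited p of below 0.05 after adjustment over all tested genes. Etv5, the targeted gene, stood at 5.24 (WT) and 2.12 FPKM (cKO) and was called (the authors' adjusted p = 0.0181). The sorted cells carried the TFH markers in both genotypes: Cxcr5 stood at 183 and 158 FPKM, Pdcd1 at 173 and 154 FPKM, Bcl6 at 95.9 and 86.9 FPKM and Cd4 at 460 and 470 FPKM, in WT and cKO in the authors' deposited table.

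Promoters of 9 of the 10 cytokine genes were matched in the RefSeq promoter table (GRCm38.p6). Il10 had no match there, so its promoter was not scanned. Shown are Ifng, the cytokine gene that was called, and Il21 and Il4, the B cell help cytokines. Each runs from 250 bases before the transcription start to 50 bases after it, 5′ to 3′ on the gene's strand. Capitals mark GGAA or its complement TTCC, the minimal core shared by ETS factors, the family of Etv5.

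Ifng promoter, chr10:118440796-118441095, plus strand: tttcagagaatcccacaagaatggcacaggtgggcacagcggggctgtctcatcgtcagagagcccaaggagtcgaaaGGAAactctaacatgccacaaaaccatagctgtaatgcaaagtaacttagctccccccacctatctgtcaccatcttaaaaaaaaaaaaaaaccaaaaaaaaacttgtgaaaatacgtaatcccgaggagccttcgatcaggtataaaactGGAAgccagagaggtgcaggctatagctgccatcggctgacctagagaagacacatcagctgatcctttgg

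Il21 promoter, chr3:37232587-37232886, minus strand: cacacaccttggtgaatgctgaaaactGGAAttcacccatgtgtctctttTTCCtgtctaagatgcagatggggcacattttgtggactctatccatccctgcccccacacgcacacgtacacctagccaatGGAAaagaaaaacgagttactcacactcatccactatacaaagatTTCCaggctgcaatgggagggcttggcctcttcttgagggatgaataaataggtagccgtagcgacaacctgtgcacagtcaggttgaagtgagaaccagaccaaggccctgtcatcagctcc

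Il4 promoter, chr11:53618616-53618915, minus strand: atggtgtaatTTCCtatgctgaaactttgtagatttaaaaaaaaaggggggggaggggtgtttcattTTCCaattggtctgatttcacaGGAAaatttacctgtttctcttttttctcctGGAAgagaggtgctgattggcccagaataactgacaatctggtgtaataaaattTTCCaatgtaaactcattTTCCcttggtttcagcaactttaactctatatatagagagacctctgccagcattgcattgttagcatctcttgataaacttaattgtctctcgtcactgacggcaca

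The minimal core GGAA occurred 2 times in the Ifng promoter, 4 times in that of Il21 and 6 times in that of Il4, counting both strands. These letters are frequent: 96.0% of the 32851 promoters of the same length hold at least 1 GGAA, 84.6% hold at least 2, 46.3% at least 4 and 15.7% at least 6. The longer ETS core CGGAAG, held by 16.9% of all promoters, was matched in the Lif promoter and in none of the other 8. The NFAT core GGAAA, which contains the ETS minimal core, was matched in all 9 promoters, against 61.3% of all promoters. It had 1 match in Ifng, 3 in Il21 and 5 in Il4. The AP-1 site TGANTCA was matched in Il16 and Lif (7.81% of all promoters), and the STAT site TTCNNNGAA in Ifng (8.30%). The TATA box TATAAA was matched in Ifng, starting 30 bases before the transcription start, and in Il2 and Il13 (13.6% of all promoters). These are matches of letters in a short window, and binding was not measured.

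Ifng was the 1 cytokine gene called between the genotypes. Its messenger RNA level in the authors' deposited table was 29.8 FPKM in WT and 14.5 FPKM in cKO, 48.7% of the WT level. The log2 fold change was -1.04 (the authors' unadjusted p = 5e-05, the smallest in the table and shared by 32 genes, and adjusted p = 0.0181). Interferon-gamma is the signature cytokine of Th1 cells and activates macrophages. Of the 9 tested cytokine genes, 1 was called lower and 0 higher, where 0.242% and 0.104% of all tested genes were called in these directions. At an unadjusted p below 0.05 the counts were 4 lower (Ifng, Il10, Il21 and Csf1) and 0 higher, against 1.30% and 1.11% of all tested genes. A fold of at least 1.5 at an average of 1 FPKM or more was reached by 2 lower genes (Ifng and Il10) and 1 higher gene (Il13), against 1.22% and 1.29% of the 10863 tested genes at that level. These counts only describe the genes, which were chosen with earlier results of these data known. The median log2 fold change of the 9 cytokine genes was -0.15, 5 being lower and 4 higher. Over all tested genes the median was -0.0032, and 51.1% were lower. In a bulk sample, fewer producing cells and less messenger RNA per cell cannot be told apart.

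**Figure D1:**
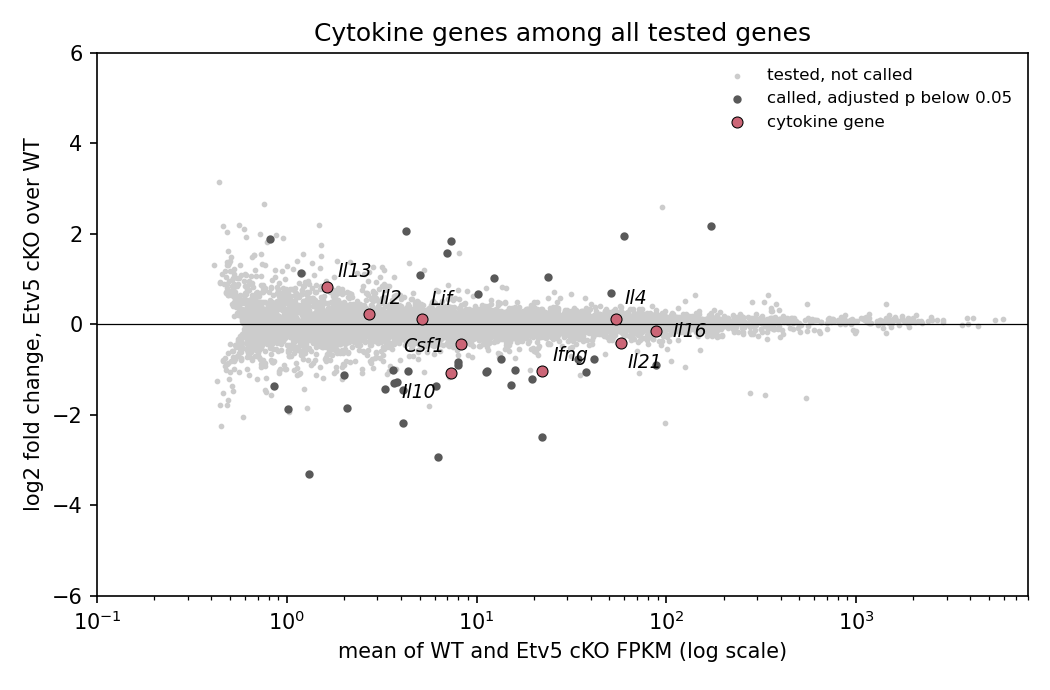
Each point is a tested gene, placed by the mean of its WT and Etv5 cKO FPKM (x axis, log scale) and its log2 fold change, Etv5 cKO over WT (y axis), with called genes in dark grey and the 9 tested cytokine genes in red. Ifng (log2 fold change -1.04) and Il10 (-1.08) lie at the lower edge of the cloud, while Il4 and Lif lie near 0. Genes with a value of 0 in a genotype and 2 tested genes outside the axes are not shown.

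The cytokines of B cell help came next. Il21 (mm10 chromosome 3, 37222759 to 37232636, minus strand) stood at 66.1 (WT) and 49.7 FPKM (cKO), 75.2% of the WT level. Its log2 fold change of -0.41 was not called (the authors' unadjusted p = 0.0197, adjusted p = 0.999). Il4 (chromosome 11, 53612461 to 53618665, minus strand) stood at 52.1 and 56.6 FPKM, 109% of WT (log2 fold change 0.12, the authors' adjusted p = 0.999). The order of these B cell help cytokines differed between the genotypes. The ratio of the Il21 level to the Il4 level was 1.27 in WT and 0.878 in cKO. For Ifng (chromosome 10, 118441047 to 118445892, plus strand) the ratio to the Il4 level was 0.573 in WT and 0.257 in cKO. Neither difference in ratio was tested, since the table holds no value per library.

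Il10 encodes interleukin-10, which restrains inflammation and which both TFH and follicular regulatory T cells can make. In the authors' deposited table Il10 (chromosome 1, 131019845 to 131024970, plus strand) stood at 9.96 (WT) and 4.72 FPKM (cKO), 47.3% of WT. Its log2 fold change of -1.08 was slightly larger than that of Ifng, but its p was higher and it was not called (the authors' unadjusted p = 0.00125, adjusted p = 0.249). The 2 genotypes averaged 5 FPKM or more in 8647 tested genes, and 8645 of them had a finite fold change. Among the 8645, 13 had a lower log2 fold change than Il10 and 17 a lower one than Ifng. For Csf1 and Il21 the numbers were 87 and 92. Of 10 regulatory T markers 5 were lower and 5 higher, with a median log2 fold change of -0.04 that becomes 0.04 when centred on pan T cell genes. Of these, 0 were called by Cuffdiff and 1 had an unadjusted p below 0.05. That gene was Nrp1 (45.0 and 32.9 FPKM). Ikzf2, with the next lowest p of the list, stood at 102 and 79.9 FPKM, and Foxp3 at 65.3 and 66.3 FPKM. The list summed to 697 (WT) and 657 FPKM (cKO), with no marker at 0. The part of regulatory T cells in the Il10 values was not tested.

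Il2 and Il13 were present at low levels. Il2, the T cell growth factor that TFH cells make and respond to little, stood at 2.49 and 2.90 FPKM in WT and cKO (log2 fold change 0.22, the authors' adjusted p = 0.999). Il13, a type 2 cytokine next to Il4, stood at 1.17 and 2.07 FPKM, the largest fold above WT among the 9 tested cytokine genes (log2 fold change 0.82). It was not called (the authors' unadjusted p = 0.101, adjusted p = 0.999) in the deposited test, and with a pseudocount of 5 FPKM its log2 fold change was 0.20. Basophils, mast cells and neutrophils can add transcripts of type 2 cytokines or of myeloid growth factors to a sort. Of 11 tested markers of these cells 7 were higher and 4 lower, 2 were higher at an unadjusted p below 0.05, and 1 was called (Mpo, 3.24 and 6.86 FPKM). The whole list summed to 16.8 (WT) and 28.5 FPKM (cKO), with no marker at 0. The basophil protease Mcpt8 was among the 4 lower markers (1.43 and 1.09 FPKM). Cpa3 (0.543 and 0.827 FPKM) and Kit (0.810 and 1.17 FPKM) were among the 7 higher ones. The part of these cells in the Il13 and Il4 values was not tested.

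Il16 had the highest FPKM of the 10 in both genotypes, 92.3 (WT) and 83.1 FPKM (cKO) (log2 fold change -0.15, the authors' adjusted p = 0.999). It encodes a precursor that is cut to release interleukin-16, a ligand of CD4. Csf1, the macrophage growth factor, stood at 9.50 and 7.07 FPKM (log2 fold change -0.43, the authors' unadjusted p = 0.0333, adjusted p = 0.999) and was not called. Lif, a cytokine that signals through gp130, stood at 4.93 and 5.34 FPKM (log2 fold change 0.11, the authors' adjusted p = 0.999). Csf2, which encodes the granulocyte-macrophage growth factor, was listed at 0.185 and 0.189 FPKM and was not tested by the authors.

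**Figure D2:**
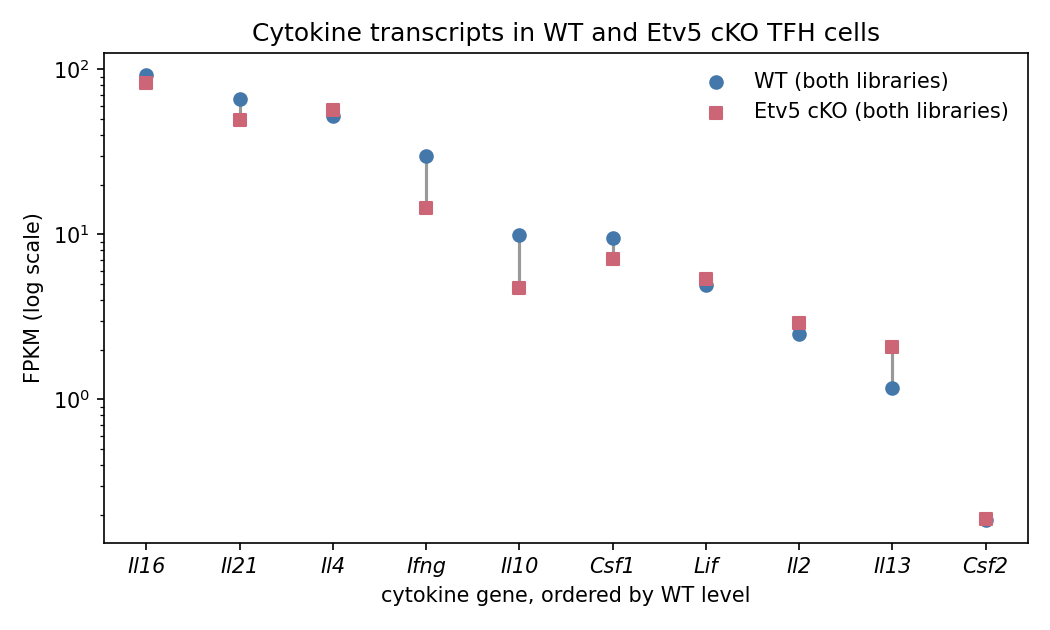
FPKM values (y axis, log scale) of the 10 cytokine genes, ordered by WT level, in WT (blue circles) and Etv5 cKO (red squares). Each point is the authors' value over both libraries of a genotype, so no error bar can be drawn. Levels run from 92.3 FPKM for Il16 to 0.185 FPKM for Csf2 in WT, and the widest gaps between the genotypes on this scale are those of Ifng, Il10 and Il13.

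In order of WT level the genes were Il16, Il21, Il4, Ifng, Il10, Csf1, Lif, Il2, Il13 and Csf2. In cKO, Il4 stood above Il21, and Il10 stood below Csf1 and Lif. Without a spread between libraries it cannot be said which neighbours in this order differ. The levels of the 10 genes summed to 269 (WT) and 226 FPKM (cKO). Ifng made up 11.1% of this sum in WT and 6.42% in cKO, and Il4 19.4% and 25.0%. In WT, 856 of all tested genes had a higher level than Il16, 1316 a higher one than Il21, and 10687 a higher one than Il13.

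Several of the cytokine genes lie beside each other or beside other T cell genes. Il13 is 12.7 kb from Il4, Rad50 is 14.8 kb from Il13, and Il21 is 96.8 kb from Il2. Log2 fold changes were 0.82 for Il13 and 0.12 for Il4, and they were of opposite sign for Il21 (-0.41) and Il2 (0.22). In GENCODE M21, genes on the opposite strand overlap Il21, Il2, Il16 and Csf2, and genes on the same strand overlap Ifng and Il16 (for Il16 a processed pseudogene). Whether reads were counted by strand is not given in the labels, so these values may hold reads of the overlapping genes. Tmevpg1, a long non-coding RNA gene 56.1 kb from Ifng that is known to favour Ifng expression, stood at 1.07 (WT) and 0.960 FPKM (cKO) (log2 fold change -0.15, the authors' adjusted p = 0.999). Mapkapk2, 28.7 kb from Il10, stood at 48.4 and 48.7 FPKM. In all, 26 other genes lay within 100 kb of a cytokine gene. Of the 17 tested among them 13 were lower and 4 higher, with a median log2 fold change of -0.04, 0 called by Cuffdiff and 1 at an unadjusted p below 0.05 (Sept8, 4.01 and 5.58 FPKM).

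The 3′ ends of the cytokine transcripts were compared for the pentamer ATTTA, the DNA form of the core of AU-rich elements, in the longest coding transcript of each gene in GENCODE M21. The median was 6 pentamers per 3′ UTR for the 10 cytokine genes and 2 for 10454 tested genes. Per kb of 3′ UTR the medians were 6.27 and 1.30. Csf2 had 9 in 317 bases, a density that 0.0287% of the tested genes reach. Ifng had 6 in 631 bases, Il10 had 6 in 706 bases and Il2 had 7 in 581 bases. Il4 had 2 in 104 bases, and Il16 had 0 in 1064 bases. Il13 had 3 in 741 bases, Il21 had 9 in 2578, Lif had 7 in 3180 and Csf1 had 4 in 2111. The densities of these last 4 genes are reached by 10.5%, 14.6%, 31.4% and 37.2% of the tested genes. Log2 fold changes were -1.04 for Ifng, -1.08 for Il10, 0.22 for Il2, 0.12 for Il4 and -0.15 for Il16. They were 0.82 for Il13, -0.41 for Il21, 0.11 for Lif and -0.43 for Csf1. The decay factor Zfp36 stood at 358 and 320 FPKM, and its relative Zfp36l2 at 311 and 397 FPKM. Both belong to a list of cytokine mRNA decay factors that was not limited to proteins acting on AU-rich elements. Of the 9 tested genes of that list, 6 were lower and 3 higher. Cuffdiff called 0 of them, and 0 had an unadjusted p below 0.05.

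The receptors decide which cells respond to the cytokines. Of 18 receptor genes 15 were tested, 6 lower and 9 higher. The median log2 fold change was 0.03, and Cuffdiff called 0 of them. Il21r stood at 89.3 (WT) and 75.8 FPKM (cKO), and the interferon-gamma receptor chain Ifngr1 at 42.4 and 52.1 FPKM. Il13ra1 stood at 1.27 and 0.775 FPKM. The 1 gene at an unadjusted p below 0.05 was Csf1r, the receptor of CSF1 and a macrophage gene (11.1 and 14.9 FPKM, the authors' unadjusted p = 0.0282, adjusted p = 0.999). Myeloid and dendritic markers, to which Csf1r belongs, were higher in 13 of 14 tested genes, summed to 223 (WT) and 290 FPKM (cKO) and had no marker at 0. Of these 14, 7 were higher at an unadjusted p below 0.05, and 1 was called (Lyz2, 8.12 and 16.4 FPKM). The part of myeloid cells in the Csf1 and Csf1r values was not tested.

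Transcription factors that act on cytokine genes were lower in 22 and higher in 6 of 28 tested. Of all tested genes 51.1% were lower, and of 20 pan T cell genes 15 were. The median log2 fold change of the transcription factors was -0.09. When centred on the pan T cell genes that median was -0.0020. Cuffdiff called 0 of them, and Egr2, induced by T cell receptor signals, was the 1 gene with an unadjusted p below 0.05 (38.4 and 28.6 FPKM, the authors' adjusted p = 0.999). Nfil3, which acts on Il10 and other cytokine genes, stood at 16.9 FPKM in WT and at 76.7% of that level in cKO, Maf, an activator of Il21, Il4 and Il10, at 206 and 173 FPKM, and Nfatc1 at 215 and 179 FPKM. Tbx21 and Eomes, which drive Ifng, stood at 9.03 and 7.65 FPKM and at 7.05 and 8.30 FPKM. Gata3, which drives the type 2 cytokines, stood at 54.3 and 59.8 FPKM.

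Response genes of the cytokines were examined next. Of 20 tested interferon-gamma response genes 15 were lower and 5 higher, the same counts as for the 20 pan T cell genes. The median log2 fold change of the response genes was -0.04, which becomes 0.04 when centred on pan T cell genes. Cuffdiff called 0 of them, and 2 had an unadjusted p below 0.05. These were the chemokine gene Cxcl10 (16.2 (WT) and 10.2 FPKM (cKO), the authors' adjusted p = 0.999) and the GTPase gene Iigp1 (21.3 and 16.1 FPKM). Irf1, a direct target of interferon-gamma signalling, stood at 113 and 106 FPKM. Of the 12 tested STAT5 and STAT3 response genes 5 were lower and 7 higher, with 0 called by Cuffdiff and 0 at an unadjusted p below 0.05. Cish, a feedback inhibitor induced through STAT5, had the lowest p of that list (19.7 and 24.7 FPKM, the authors' unadjusted p = 0.0873).

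**Figure D3:**
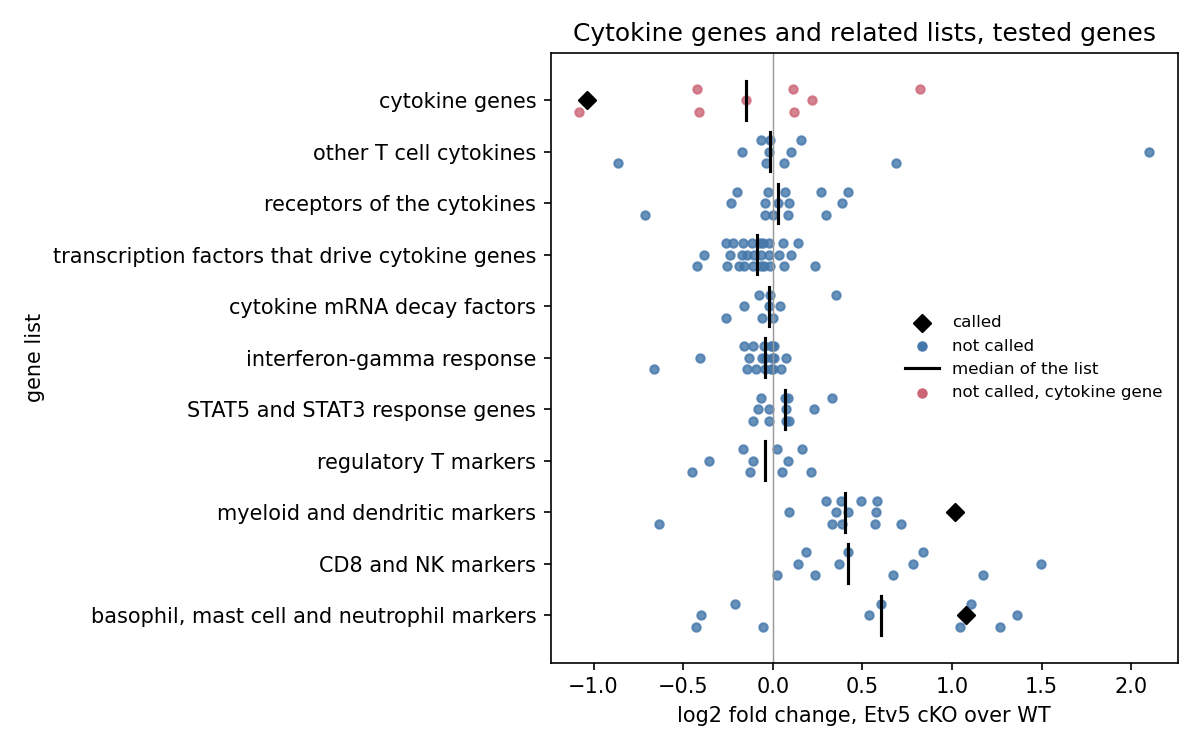
Log2 fold changes, Etv5 cKO over WT (x axis), of the tested genes of the cytokine set and of 10 related lists (y axis), where each point is a gene, black diamonds are called genes and vertical lines are list medians. The medians of the 7 upper lists below the cytokine genes lie between -0.09 and 0.07, and those of the 3 lists of myeloid, CD8 or NK, and granulocyte markers between 0.41 and 0.61.

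Further cytokine genes of T cells were listed for comparison. Of 23 genes 11 were tested, 6 lower and 5 higher, and the median log2 fold change of -0.01 became 0.07 when centred on pan T cell genes. Cuffdiff called 0 of them, and Il22 was the 1 gene with an unadjusted p below 0.05. Il22, which acts on epithelial cells, stood at 0.226 (WT) and 0.967 FPKM (cKO) (log2 fold change 2.10, the authors' unadjusted p = 0.0299, adjusted p = 0.999). Il18 stood at 3.54 and 5.71 FPKM, Il15 at 0.628 and 0.345 FPKM and Tnf at 36.1 and 32.0 FPKM. Il9, Il24 and Il31 were listed at 0 in both genotypes. Il17a stood at 0.134 and 0.104 FPKM and Il5 at 0.110 and 0.0968 FPKM, and neither was tested by the authors.

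CD8 T and NK cells also make interferon-gamma. Their markers were higher in 11 of 11 tested genes. Their median log2 fold change was 0.42, and they summed to 35.6 (WT) and 44.4 FPKM (cKO). Cuffdiff called 0 of them and 2 had an unadjusted p below 0.05, among them Gzma (2.28 and 4.07 FPKM). None was at 0. Cd8a, not tested by the authors, stood at 0.0519 and 0.0800 FPKM, while the other CD8 chain, Cd8b1, stood at 4.32 and 5.77 FPKM. The part of CD8 T and NK cells in the Ifng values was not tested. Erythroid markers were higher in 9 of 9 tested genes, 7 of them at an unadjusted p below 0.05 and 5 of them called, and summed to 145 and 602 FPKM. The part of these cells in the cytokine values was not tested. Centred on the pan T cell genes, whose median log2 fold change was -0.08, Ifng had a log2 fold change of -0.95 and Il4 one of 0.20.

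**Figure D4:**
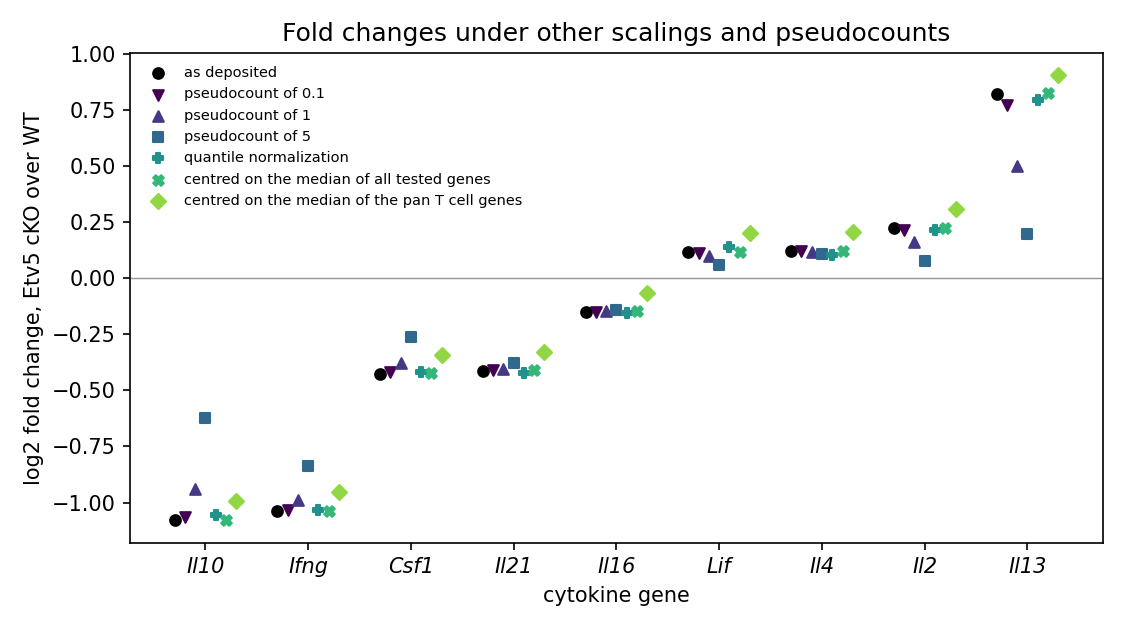
Log2 fold change, Etv5 cKO over WT (y axis), of the 9 tested cytokine genes (x axis) as deposited (black circles) and under 3 pseudocounts and 3 scalings (coloured symbols). Every gene keeps its sign under the 3 scalings, while a pseudocount cannot turn a sign. With a pseudocount of 5 FPKM the log2 fold changes of Il10 and Il13 are -0.62 and 0.20.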

How the data were processed

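Messenger RNA of sorted splenic TFH cells was sequenced from stranded poly(A) libraries, per the labels' protocols. TopHat2 2.0.13, Cuffdiff 2.2.0 and the build mm10 are named in the submitters' processing notes; the annotation release and the strand setting are not in the labels or file headers. Per the file headers, the authors deposited for each gene 1 FPKM value per genotype, the log2 fold change without a pseudocount, the fold ratio, a test score and both an unadjusted and an adjusted p-value, with both libraries in 1 Cuffdiff condition. The smallest deposited p-value is 5e-05, shared by 32 genes. Start positions were made 1-based.

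No count or value per library exists in this table, so no second test over all genes was fitted. Calls use the deposited adjusted p below 0.05. Members and the 14 lists (222 symbols, 221 found) were chosen with earlier results of these data known. Named genes, beside the target Etv5, are the 10 cytokines, called genes and up to 4 genes of lowest p in each list, and genes within 100 kb. Cd4, Foxp3, Mcpt8, Cpa3, Cd8a, Cd8b1, Tbx21, Eomes, Gata3, Irf1, Il9, Il17a, Il24 and Il31 were added after their values were seen. The B and plasma cell list (5 tested) had 0 calls by Cuffdiff, 0 genes at an unadjusted p below 0.05 and sums of 54.4 and 53.0 FPKM. Promoter motifs and AU-rich pentamers were counted by exact match, overlaps included. Adjustment and normalization code was tested on simulated data. Python 3.11.15, pandas 2.3.3 and matplotlib 3.10.9 were used.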

Additional observations from a re-analysis of the deposited data

How the results depend on the processing

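Ifng kept its call over every gene of the table (Benjamini-Hochberg adjusted p = 0.0375 on the authors' p-values) and over tested genes averaging 1 FPKM or more (0.0181). At the looser limit of an adjusted p below 0.1 it could not lose that call. The count of cytokine genes lower in cKO was 1 under these settings, 4 at an unadjusted p below 0.05 and 2 at a fold of at least 1.5; the count of higher genes was 1 at that fold and 0 otherwise. The median log2 fold change of the cytokine genes was -0.14 with a pseudocount of 5, -0.16 after quantile normalization, -0.066 when centred on pan T cell genes and -0.060 with the untested Csf2 included. None of the 54 alternative fold changes of single cytokine genes turned its sign. A pseudocount cannot turn the sign of a single gene, so only the scalings could have done so. Centring on all tested genes moved the values by no more than the median of -0.0032. Of 84 alternative list medians 6 did, 5 when centred on pan T cell genes (including that list itself, at 0) and the B and plasma cell list after quantile normalization. No paired analysis was possible because the table holds no value per library, and leaving out a replicate was not run for the same reason. Depth is unknown, so no detection limit could be given.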
